A study of Mus musculus with 18 samples.

Results

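The cytosolic leucine tRNAs of the mouse were examined in brain cell fractions of Atxn2-CAG100-KIN mice (KIN), which carry an expanded CAG repeat knocked into Atxn2 as a model of spinocerebellar ataxia type 2. Members were all table entries of tRNA type named for leucine. They comprised 26 gene copies of 407 cytosolic tRNA gene copies, which were summed to 18 isodecoders of 218 and to 5 anticodons of 51. An isodecoder is a set of gene copies listed under 1 name that share an anticodon and differ in body sequence from the other isodecoders. The groups were astrocytes, microglia and neurons of KIN and of wild-type mice (WT), with 3 small RNA libraries in each of the 6 groups. KIN mice were homozygous, and both genotypes were on a C57BL/6 background at about 10 months. The study describes same-sex littermate pairs, 2 of them male and 1 female. Microglia were taken with CD11b beads, astrocytes with ACSA-2 beads, and neurons were the unbound cells left after labelling of non-neuronal cells and CD31 depletion, so the neuron fraction was defined by what was removed. The study isolated the 3 fractions in turn from each brain, so libraries of different fractions can come from the same animal, but the labels do not tie a replicate number to 1 brain. The p-values therefore measure the spread between these libraries. Comparisons between fractions treat them as separate samples, except where the replicate number is used as a block.

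Transfer RNAs carry an amino acid to the ribosome and read a codon through the anticodon. Leucine is encoded by 6 codons, and its tRNAs belong to the type with a long variable arm. They are charged by leucyl-tRNA synthetase, and in the Leu-CAA genes an intron next to the anticodon has to be spliced out before the tRNA can function. Leu-AAG is read after deamination of its first anticodon base to inosine.

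Of the 26 gene copies, 24 could be located in the mouse genome (GRCm39), with 16 distinct sequences. The 5 isodecoders below could be tied to loci by copy number and length, and they are shown because they include the most abundant leucine tRNAs and show how far reads can be told apart. Letters are the genomic sequence, 5′ to 3′ on the strand of the gene, and capitals mark the anticodon.
Leu-CAG-1: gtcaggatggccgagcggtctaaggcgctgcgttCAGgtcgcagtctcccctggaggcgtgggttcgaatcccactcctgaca
Leu-CAG-2: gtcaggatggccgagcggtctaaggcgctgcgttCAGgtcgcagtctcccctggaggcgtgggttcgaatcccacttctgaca
Leu-AAG-1: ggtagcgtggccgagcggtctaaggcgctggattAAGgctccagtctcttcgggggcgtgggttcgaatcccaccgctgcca
Leu-CAA-2: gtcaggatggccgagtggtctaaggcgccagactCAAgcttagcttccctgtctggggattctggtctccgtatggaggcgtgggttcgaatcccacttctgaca
Leu-CAA-3: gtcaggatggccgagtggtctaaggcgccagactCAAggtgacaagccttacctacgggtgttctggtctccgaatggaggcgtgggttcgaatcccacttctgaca

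Leu-CAG-1 has 5 identical loci, of which 4 lie on chromosome 1 (chr1:170893553-170893635, chr1:170901188-170901270 and chr1:170908802-170908884 on the plus strand, chr1:170929407-170929489 on the minus strand) and 1 on chromosome 13 (chr13:23637602-23637684, minus strand). All 5 are intergenic in the annotation. Leu-CAG-2 has 3 loci, 1 intergenic at chr1:170866183-170866265 (plus strand) and 2 at chr8:95430259-95430341 (plus strand) and chr8:95430632-95430714 (minus strand), within an intron of the lncRNA Gm53412. The pair differ by the substitution C77T, counted from the 5′ end, and share their first 76 bases. Leu-AAG-1 has 3 loci. Those at chr11:48747801-48747882 (minus strand) and chr13:21354206-21354287 (plus strand) lie in introns of the lncRNAs Gm73211 and Gm32298, and that at chr14:51301340-51301421 (plus strand) is intergenic. Leu-CAA-2 lies at chr13:21384374-21384478 (plus strand), in an intron of the lncRNA Gm61135 on the opposite strand, and Leu-CAA-3 at chr11:58193300-58193406 (minus strand), which is intergenic. Leu-CAA-2 and Leu-CAA-3 share 38 bases at the 5′ end, and each shares its last 32 bases with Leu-CAG-2. A read from such a shared end cannot be assigned to 1 isodecoder by sequence.

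The counts of copies with the same sequence were nearly equal. Within Leu-CAG-1, Leu-CAG-2 and Leu-AAG-1, the highest copy exceeded the lowest by a ratio of 1.00 to 1.19 in any library. The mean count per copy of Leu-CAG-1 over that of Leu-CAG-2 was 0.920 to 1.04 across the 18 libraries. Copies were therefore summed, and values of single copies of these isodecoders are uncertain. The split of counts between Leu-CAG-1 and Leu-CAG-2 is uncertain too, so their results below are not independent of each other.

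The 18 libraries held 1211118 to 4316748 counts in total, of which 7155 to 67519 were leucine tRNA. The marker check used microRNAs. The 3 microglia microRNAs summed to 2835–5914 CPM (counts scaled to the library total) in microglia, against 10.2–12.6 in WT and 24.99–48.5 in KIN astrocytes, without overlap, and 42.9–377 in neurons. The 3 neuronal microRNAs summed to only 48.7–228 CPM in the neuron fraction, below the 1036–3150 CPM in astrocytes, so the neuron label was not borne out by these markers, and "neurons" below names the fraction. None of the 3 markers was at 0 in that fraction. The oligodendrocyte microRNAs were at 1770–3035 CPM in WT astrocytes and 3351–5112 in KIN astrocytes, without overlap. In microglia, 3 lists did not overlap between genotypes. The neuronal microRNAs were at 60.7–159 CPM in WT and 47.0–55.1 in KIN, miR-9 of the neural lineage at 82.3–245 and 59.1–68.6, and the erythroid microRNAs at 17.3–22.2 and 28.6–131. Their part in the genotype comparisons was not tested. In these bulk samples, fewer cells of a type and less RNA per cell cannot be told apart. Counts of Atxn2 were 0 to 10 per library, too low to check the genotype, and the expanded repeat was not measured. Xist, the RNA of the inactive X chromosome in females, had 4 to 5 counts in KIN replicate 1 of every fraction and 12 to 102 counts in each of the other 15 libraries. Low counts fell on KIN replicate 1 and on no WT library. They match neither the stated sexes, with more male than female pairs, nor same-sex pairs under any pairing of the numbers. In microglia, KIN replicate 1 is also the KIN library that stood apart, as given below. The part of sex in the genotype comparisons was not tested.

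Some libraries stood apart from the others of their group. Among microglia, KIN replicate 1 and WT replicate 2 differed in the makeup of their leucine tRNA. Leu-CAG made up 31.6% of the leucine counts in KIN replicate 1, while the remaining KIN libraries had 65.2% and 67.7%. It made up 43.9% in WT replicate 2, while the remaining WT libraries had 61.6% and 57.5%. The same libraries were far from their group over the 2174 to 2752 features compared per microglia pair. A chi-square of the counts between replicates was 129 and 134 per degree of freedom for pairs with KIN replicate 1 and 9.96 for the other KIN pair, and 73.3 and 73.2 for pairs with WT replicate 2 and 7.33 for the other WT pair. Among WT astrocytes, pairs with replicate 2 were at 40.4 and 33.7 and the other pair at 6.83. The 3 WT neuron libraries differed from each other by 70.1 to 146 on the same measure.

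In CPM, summed leucine tRNA had its highest group means in microglia, and the spread was small in astrocytes. The sum was 5564, 6370 and 5006 CPM in the WT astrocyte libraries and 5492, 6157 and 5609 CPM in KIN. In microglia it was 8174, 7658 and 6872 CPM in WT and 7579, 14412 and 15716 CPM in KIN. KIN replicates 2 and 3 lay above every other library of the series, while KIN replicate 1 lay within the WT range. In neurons the sum was 6542, 9090 and 4684 CPM in WT and 5369, 5180 and 5374 CPM in KIN. All 3 KIN neuron values fell inside the WT range, and WT replicate 2 lay above every WT microglia library. With tRNA totals or microRNA factors as the reference, neurons lay above microglia, as given with the fraction comparisons.

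**Figure D1:**
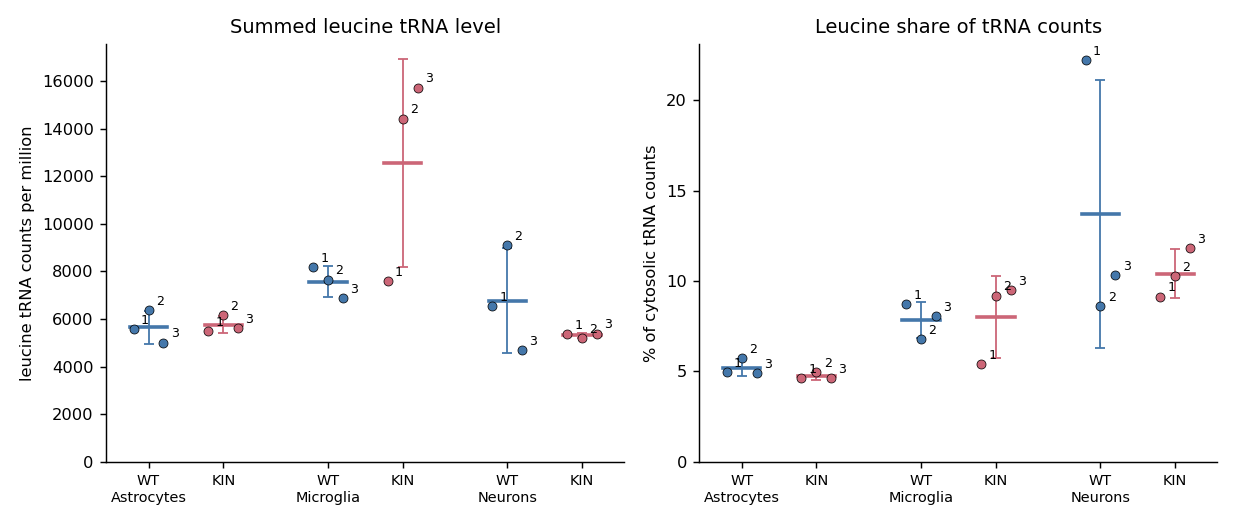
Left, summed leucine tRNA in CPM; right, leucine share of all cytosolic tRNA counts in percent. Points are libraries with their replicate number, lines are means and bars are SD (n = 3 per group). Microglia KIN replicates 2 and 3 stand at 14412 and 15716 CPM, and neuron WT replicate 1 stands at a share of 22.2%.

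Leucine tRNAs took a larger share of tRNA counts in the neuron fraction. The share was 4.63% to 5.74% in the 6 astrocyte libraries (median 4.93%), 5.41% to 9.48% in microglia (median 8.39%) and 8.59% to 22.2% in neurons (median 10.3%). Between genotypes, the share was 5.20% ± 0.467 in WT and 4.74% ± 0.188 in KIN astrocytes (SD, n = 3), 7.85% ± 0.996 and 8.02% ± 2.27 in microglia, and 13.7% ± 7.42 and 10.4% ± 1.35 in neurons. The differences of KIN minus WT were −0.463, 0.174 and −3.31 percentage points, with p of 0.3, 0.9 and 0.8 by exact two-sided permutation tests and 0.9 for each after adjustment. With 3 against 3 libraries such a test cannot go below 0.1.

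Leu-CAG was the most abundant leucine tRNA in every library. Averaged over the 18 libraries, the level per kilobase of listed length was 42902 CPM for Leu-CAG, 14328 for Leu-AAG, 11434 for Leu-CAA, 10662 for Leu-TAG and 5394 for Leu-TAA. Leu-CAG was first and Leu-TAA last in 18 of 18 libraries. Leu-AAG was second in 13, and Leu-CAA in 5, all from the neuron fraction. Leu-CAA exceeded Leu-TAG in 9 of 18. Lengths are 82 or 83 bases for the other anticodons and 105–107 for Leu-CAA with its intron, which lowers its level per kilobase. In CPM, not divided by length, Leu-CAA exceeded Leu-TAG in 18 of 18 libraries and Leu-AAG exceeded Leu-CAA in 9, so the order of these members depended on the length used.

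Among isodecoders, Leu-CAG-1 had the highest CPM in 16 of 18 libraries and Leu-AAG-1 in 2. This sum spans 5 gene copies for Leu-CAG-1, 3 each for Leu-CAG-2 and Leu-AAG-1, and 1 for the others. Single copies of Leu-CAG-1 held 22678 to 22792 counts over all libraries, below the single-copy Leu-TAG-3 (34215) and Leu-CAG-4 (29695). The order of isodecoders thus depended on the number of copies summed. Within their anticodons, the most and least abundant isodecoders were Leu-CAG-1 and Leu-CAG-3 (113720 and 351 counts over all libraries), Leu-AAG-1 and Leu-AAG-3 (54943 and 6351), Leu-TAG-3 and Leu-TAG-2 (34215 and 3606), Leu-TAA-2 and Leu-TAA-4 (23428 and 7), and Leu-CAA-2 and Leu-CAA-4 (20546 and 12727). Leu-CAA was thus spread over its 4 isodecoders, whereas 1 isodecoder held most of the Leu-TAA counts. Leu-TAA-3 and Leu-TAA-4, with 46 and 7 counts in all, did not pass the filter on low counts, and 16 of 18 isodecoders were tested in each comparison.

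The makeup by anticodon differed between fractions. Leu-CAG made up 34.2% to 38.9% of leucine counts in astrocytes, 31.6% to 67.7% in microglia and 41.9% to 56.2% in neurons. Leu-TAA made up 9.67% to 12.1% in astrocytes, 3.30% to 7.85% in microglia and 1.38% to 7.89% in neurons, with no overlap between astrocytes and either other fraction. Leu-CAA made up 21.3% to 23.8% in neurons, above the 16.8% to 19.7% in astrocytes and the 9.03% to 16.5% in microglia. Between genotypes, no anticodon share could pass the exact permutation test, since its p cannot go below 0.1 with 3 against 3 libraries. The Leu-CAG share of astrocytes was 35.6%, 38.9% and 38.2% in WT and 34.9%, 35.1% and 34.2% in KIN. These values did not overlap and differed by −2.85 percentage points. The exact permutation p was 0.1, the lowest this test can give, and 1 after adjustment over 15 shares.

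The first comparison asked how leucine tRNA differed between KIN and WT within a fraction. In microglia, the sum was higher in KIN by 0.98 ± 0.27 on the log2 scale (SE, edgeR quasi-likelihood test, adjusted p = 0.0459), where 7.69% of all features tested passed. This call rested on the scaling and on single libraries. It was lost with the replicate number as a block (0.95, adjusted p = 0.12). It was also lost when 1 of WT replicates 1 and 3 or KIN replicates 2 and 3 was left out (adjusted p of 0.207, 0.21, 0.168 and 0.219), and the log2 fold change fell to 0.03 when libraries were scaled to their tRNA totals. Of the other 21 amino acid groups 2 passed, and their median log2 fold change was 0.94. The leucine groups of microglia overlapped, since KIN replicate 1 lay between WT values.

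No single leucine anticodon passed in microglia, against 7.51% of all features. Leu-CAG was at 5033, 3364 and 3951 CPM in WT and 2392, 9396 and 10644 CPM in KIN. It was the member with the widest KIN range, with KIN replicate 1 below all WT libraries. Its log2 fold change was 1.10 ± 0.40 (adjusted p = 0.115). Leu-AAG was at 1037, 1559 and 893.6 CPM in WT and 2093, 1770 and 1682 CPM in KIN, without overlap (0.89 ± 0.31, adjusted p = 0.107). Leu-TAG was at 843.2, 1046 and 770.1 CPM in WT and 1246, 1313 and 1391 CPM in KIN, also without overlap (0.80 ± 0.25, adjusted p = 0.0759). Leu-CAA and Leu-TAA had log2 fold changes of 0.60 ± 0.23 (adjusted p = 0.141) and 0.92 ± 0.34 (adjusted p = 0.121). In all, KIN values lay above WT values for 4 of 5 anticodons, where 5.84% of all features did so, and Leu-CAG was the exception. Cytosolic tRNA as a whole was also without overlap in microglia. It made up 9.37%, 11.3% and 8.53% of counts in WT and 14.0%, 15.7% and 16.6% in KIN. Scaled to tRNA totals, Leu-CAA and Leu-TAG turned to −0.30 and −0.089, while the other anticodons kept their sign.

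**Figure D2:**
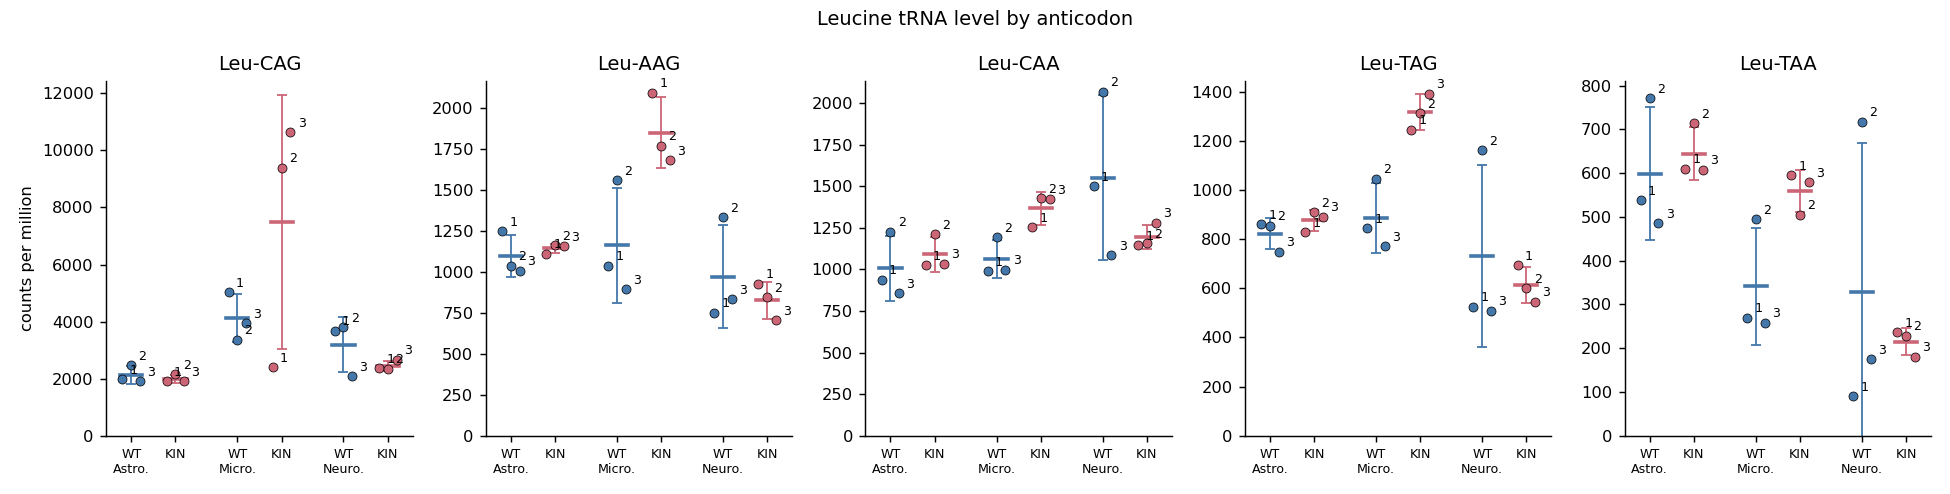
Level of each leucine anticodon in CPM by fraction and genotype, with a separate vertical scale in each panel. Points are libraries with their replicate number, lines are means and bars are SD (n = 3), drawn down to 0 at most. In microglia, KIN replicate 1 is the lowest KIN library for Leu-CAG, at 2392 CPM, and the highest for Leu-AAG, at 2093 CPM.

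None of the 16 isodecoders passed in microglia, where 6.87% of features did, while 14 had an unadjusted p of at most 0.05, against 23.2% of features. All 16 were higher on average in KIN, with a median log2 fold change of 0.82. The median was −0.09 over all features and 0.92 over the other tRNA isodecoders, of which 7 passed. Leu-TAG-3 had the smallest p (0.81 ± 0.24, adjusted p = 0.0745). It was at 612.5, 722.3 and 552.5 CPM in WT and 893.2, 938.2 and 998.8 CPM in KIN. Leu-AAG-1 (0.84 ± 0.29, adjusted p = 0.112) was at 835.2, 1183 and 728.3 CPM in WT and 1534, 1387 and 1324 CPM in KIN. For both, all KIN libraries lay above all WT libraries. Leu-CAG-4 had the largest log2 fold change (1.25 ± 0.44, adjusted p = 0.115), with 723.4, 450.6 and 516.2 CPM in WT and 314.5, 1460 and 1663 CPM in KIN. Leu-CAG-2 followed (1.06 ± 0.39, adjusted p = 0.127). KIN values lay above WT values for 6 of 16 isodecoders, namely Leu-AAG-1, Leu-CAA-1, Leu-CAA-2, Leu-TAA-2, Leu-TAG-1 and Leu-TAG-3, where 6.58% of features did so. Scaled to tRNA totals, 7 of 16 log2 fold changes stayed positive, so the direction of the isodecoders in microglia depended on the scaling.

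The 2 microglia libraries that stood apart, KIN replicate 1 and WT replicate 2, were picked out by their leucine anticodon shares, which are part of the outcome compared here. Values without them are therefore a description with no test. With 2 libraries per genotype, the log2 fold change of the sum was 1.31 in place of 0.98, and that of Leu-CAG was 1.46 in place of 1.10. Left out singly, as every replicate was, the sum was at 1.18 without KIN replicate 1 (adjusted p = 0.0121) and at 1.10 without WT replicate 2 (adjusted p = 0.0125). Isodecoders past the test then numbered 3, all Leu-CAG, without KIN replicate 1, and 12 without WT replicate 2, where 8.55% and 19.9% of all features passed.

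In astrocytes, leucine tRNA showed small differences between genotypes. The log2 fold change of the sum was 0.19 ± 0.12 (adjusted p = 0.314), and it turned to −0.13 when scaled to tRNA totals and to −0.56 with factors from mature microRNAs. The anticodons were at 0.06 to 0.27 (adjusted p of 0.154 to 0.779). Without WT replicate 2 the sum was at 0.33 (adjusted p = 0.0294) and 6 isodecoders passed as higher, against 12.7% of features in that setting. None of the 16 isodecoders passed, where 11.4% of features did. An unadjusted p of at most 0.05 was reached by 3, against 34.3% of features. Leu-AAG-3 was at 74.7, 55.0 and 62.5 CPM in WT and 80.0, 90.6 and 84.1 CPM in KIN (0.56 ± 0.18, adjusted p = 0.0624). Leu-AAG-2 was at 94.8, 68.3 and 81.1 CPM in WT and 100.3, 107.0 and 94.9 CPM in KIN (0.46 ± 0.17, adjusted p = 0.0875). Leu-TAG-3 followed (0.30 ± 0.11, adjusted p = 0.0963). These were also the 3 isodecoders whose KIN values all lay above the WT values, where 10.3% of features did so. Leu-CAG-4 alone had the reverse order, with 326.0, 346.7 and 302.1 CPM in WT and 276.3, 294.9 and 272.8 CPM in KIN. Over all features, 1459 of 5541 had that order. With DESeq2, Leu-AAG-2 and Leu-AAG-3 passed (adjusted p of 0.0306 and 0.0118), where 12.1% of features did, and with factors from mature microRNAs both had negative log2 fold changes of −0.34 and −0.23. The median over the isodecoders was 0.17, against −0.20 over all features and 0.26 over the other tRNA isodecoders, of which 33 passed as higher.

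In neurons, no difference between genotypes was detectable with these libraries. The sum had a log2 fold change of −0.42 ± 0.26 (adjusted p = 0.835), and the anticodons ranged from −0.64 to −0.26 (adjusted p of 0.852 to 0.90). Of the 16 isodecoders 0 passed the edgeR test, as did 0% of all features, and 0 passed with DESeq2. None reached an unadjusted p of 0.05 or less, against 4.79% of features. Leu-TAG-2 was at 38.8, 159.5 and 34.7 CPM in WT and 44.8, 29.7 and 37.1 CPM in KIN (−1.11 ± 0.56, adjusted p = 0.864). Leu-TAA-1 was at 2.48, 104.3 and 21.6 CPM in WT and 23.9, 21.8 and 14.9 CPM in KIN (−1.12 ± 0.86, adjusted p = 0.882). In both, WT replicate 2 was far above the other 5 libraries, and without it the log2 fold change of Leu-TAA-1 was 0.68. Leu-CAG-4 and Leu-CAA-1 had values of −0.62 and −0.46 (adjusted p = 0.864 for each).

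**Figure D3:**
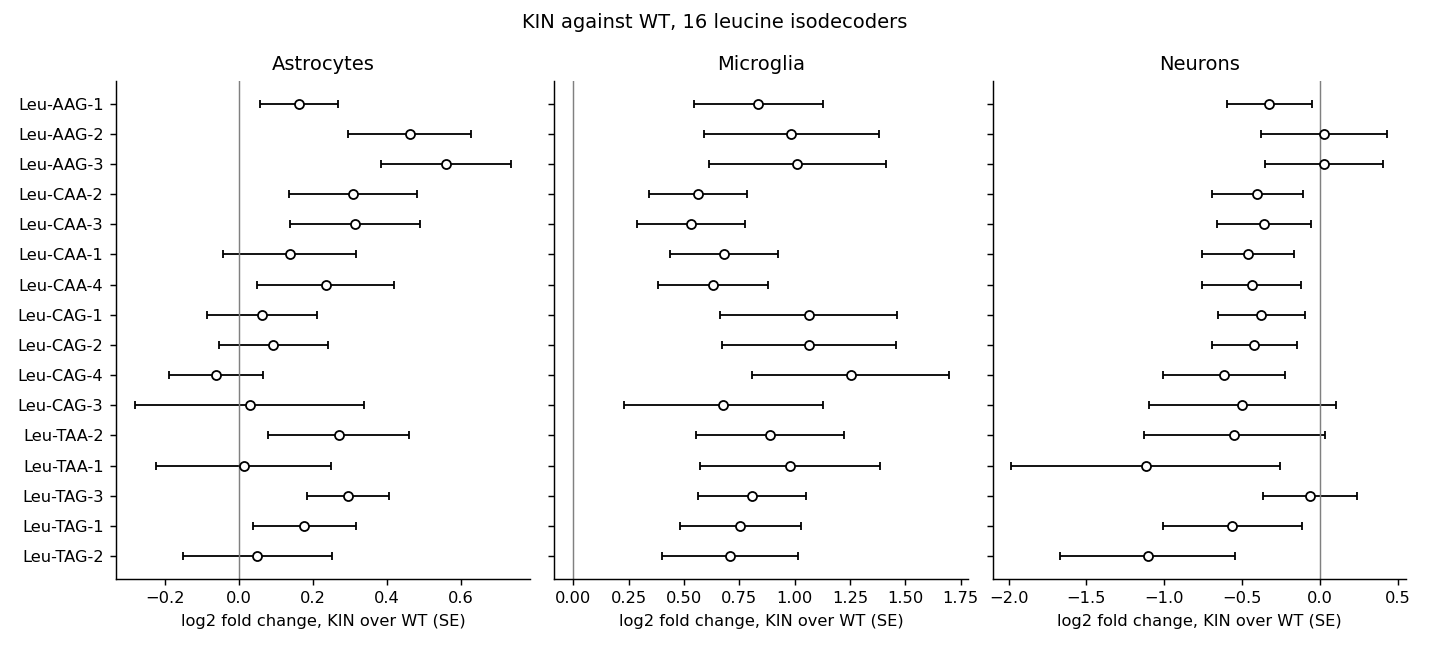
Log2 fold change of KIN over WT for the 16 tested leucine isodecoders in each fraction, with SE as bars. Each panel has its own horizontal scale, and open circles mark isodecoders that did not pass the test, which holds for all of them. The values run from 0.53 to 1.25 in microglia.

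Whether the genotype difference itself differed between fractions was tested in 1 fit of all 18 libraries. For the sum, the KIN effect in microglia minus that in astrocytes was 0.81 ± 0.39 (adjusted p = 0.667), that in neurons minus astrocytes −0.59 ± 0.39 (adjusted p = 0.670), and that in neurons minus microglia −1.40 ± 0.39 (adjusted p = 0.0745). None passed. None of the 16 isodecoders passed either, where 0.261%, 0% and 1.42% of features did, and 2, 0 and 10 had an unadjusted p of at most 0.05, against 7.47%, 9.21% and 11.8% of features. DESeq2 also called 0 in each. The difference between neurons and microglia in the sum ranged from −1.65 to −1.06 with 1 library left out, and it passed without microglia WT replicate 2, microglia KIN replicate 1, neuron WT replicate 1 or neuron WT replicate 3. With the replicate number as a block, which the labels do not give as a pairing, it was −1.32 (adjusted p = 0.0154). Whether the KIN effect differed between neurons and microglia thus depended on the fit. For microglia minus astrocytes, the sum ranged from 0.595 to 1.06 with 1 library left out, and no isodecoder passed in any of those fits. A genotype difference particular to microglia was therefore not shown.

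The second comparison asked how leucine tRNA differed between fractions, averaged over genotypes. It was higher in microglia than in astrocytes by 0.95 ± 0.20 on the log2 scale (adjusted p = 2.57e-04). This held in direction and past the test under all 5 scalings, from 0.68 to 0.95. In WT libraries alone it was 0.58 (adjusted p = 0.203), and in KIN libraries alone 1.31. Among 22 amino acid groups tested, leucine ranked behind only tryptophan and valine, and 4 of the other 21 passed as higher.

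The difference was largest for Leu-CAG, which was higher in microglia by 1.58 ± 0.25 (adjusted p = 4.79e-06), and by 1.01 ± 0.33 in WT libraries alone (adjusted p = 0.028). Leu-AAG and Leu-TAG were higher by 0.61 ± 0.22 (adjusted p = 0.0255) and 0.55 ± 0.22 (adjusted p = 0.0481), but in WT libraries alone they were at 0.26 (adjusted p = 0.609) and 0.25 (adjusted p = 0.643). Leu-CAA (0.38 ± 0.20, adjusted p = 0.14) and Leu-TAA (−0.30 ± 0.33, adjusted p = 0.497) did not pass. Of the 16 isodecoders, 6 passed as higher, against 16.5% of all features, and none as lower. They were Leu-CAG-1 (1.54 ± 0.24), Leu-CAG-2 (1.51 ± 0.24), Leu-CAG-4 (1.51 ± 0.29), Leu-AAG-3 (1.29 ± 0.26), Leu-AAG-2 (1.01 ± 0.27) and Leu-TAG-3 (0.67 ± 0.19). Leu-CAG-1 ranged from 987.6 to 1312 CPM in astrocytes and from 1273 to 5549 CPM in microglia. Only microglia KIN replicate 1, at 1273 CPM, lay inside the astrocyte range. The abundant Leu-AAG-1 did not pass (0.39 ± 0.19, adjusted p = 0.115).

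**Figure D4:**
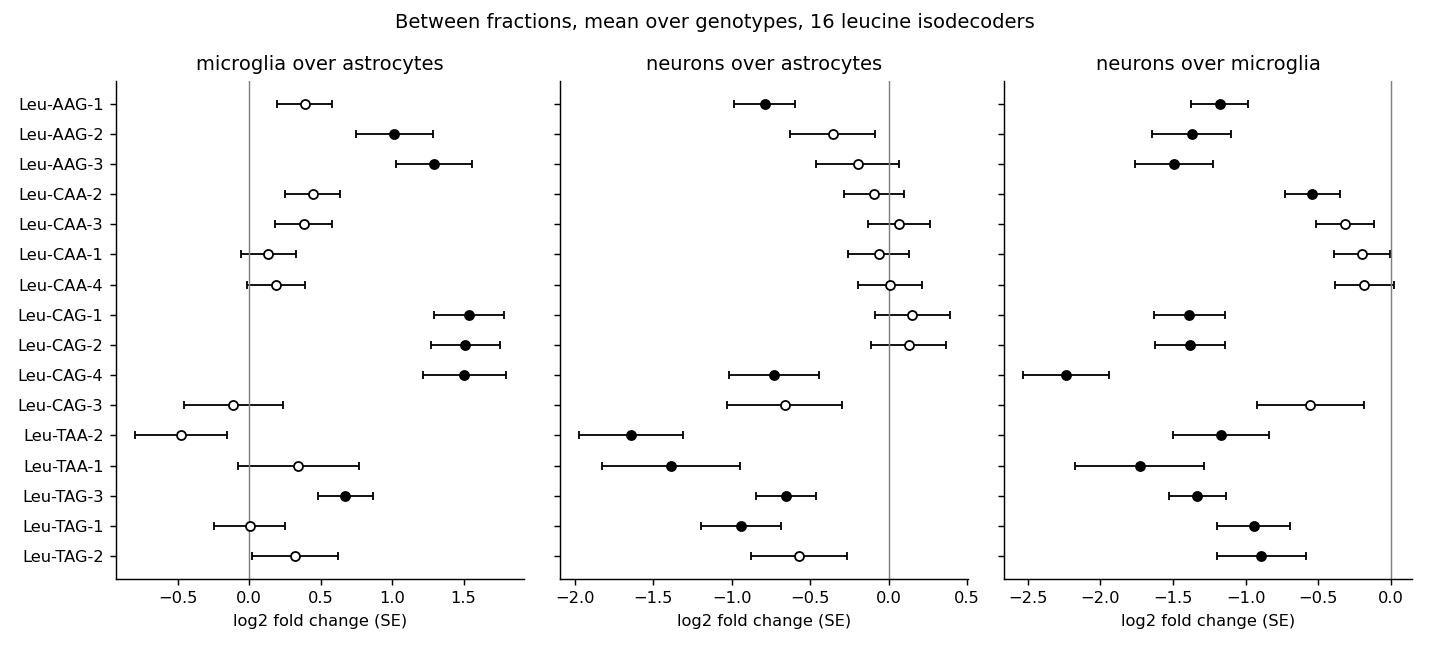
Log2 fold change between fractions, averaged over genotypes, for the 16 tested leucine isodecoders, with SE as bars and TMM scaling. Filled circles passed the test, which were 6 for microglia over astrocytes, 6 for neurons over astrocytes and 12 for neurons over microglia, and each panel has its own horizontal scale.

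Comparisons with the neuron fraction turned with the scaling. With TMM factors, the sum in neurons against astrocytes was −0.21 ± 0.20 (adjusted p = 0.406), while it was 0.07 with library totals, 1.27 with tRNA totals (adjusted p = 4.72e-05) and 2.41 with factors from mature microRNAs (adjusted p = 3.01e-11). Against microglia it was −1.16 ± 0.20 (adjusted p = 1.48e-05) with TMM factors and −0.68 in WT libraries alone (adjusted p = 0.145), while it was 0.59 with tRNA totals (adjusted p = 0.039) and 1.48 with factors from mature microRNAs (adjusted p = 3.59e-07). Cytosolic tRNA made up 2.94% to 10.6% of counts in the neuron libraries, against 10.2% to 12.4% in astrocytes and 8.53% to 16.6% in microglia. With TMM factors, 19 of the other 21 amino acid groups passed as lower in neurons than in astrocytes, and leucine ranked first of 22. Leucine tRNA was therefore lower, level or higher in the neuron fraction according to the reference, and higher relative to the other tRNAs.

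**Figure D5:**
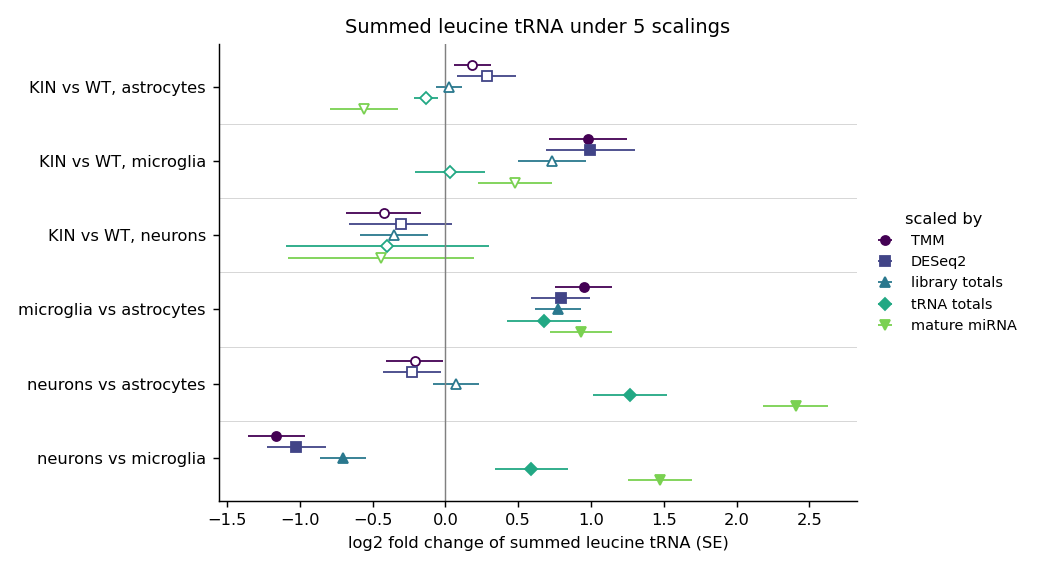
Log2 fold change of summed leucine tRNA in 6 comparisons, with SE as bars, under 5 ways to scale the libraries. Filled symbols passed the test in that setting. Microglia over astrocytes stays between 0.68 and 0.95, while neurons over astrocytes runs from −0.23 to 2.41.

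Within the family, the members ordered differently in neurons. With TMM factors, Leu-TAA was lower than in astrocytes, with a log2 fold change of −1.48 ± 0.34 (adjusted p = 6.1e-04), as were Leu-TAG at −0.60 ± 0.22 (adjusted p = 0.0262) and Leu-AAG at −0.58 ± 0.22 (adjusted p = 0.0289), while Leu-CAA was at 0.09 ± 0.20 (adjusted p = 0.75) and Leu-CAG at 0.16 ± 0.24 (adjusted p = 0.639). Of the 16 isodecoders, 6 passed as lower (Leu-TAA-2, Leu-TAA-1, Leu-TAG-1, Leu-AAG-1, Leu-CAG-4 and Leu-TAG-3), against 25.7% of features, but with tRNA totals 12 passed as higher, where 46.6% of features did, and none as lower. In WT libraries alone none passed. The largest was Leu-TAA-2 (−1.64 ± 0.33, adjusted p = 2.69e-04). It was at 427.8 to 692.1 CPM in astrocytes, and in neurons at 87.5, 597.0 and 153.2 CPM in WT and 210.8, 205.2 and 165.8 CPM in KIN, with only neuron WT replicate 2 in the astrocyte range. Leu-CAG-4 (−0.73 ± 0.29, adjusted p = 0.041) went apart from Leu-CAG-1 (0.15 ± 0.24) and Leu-CAG-2 (0.13 ± 0.24), and the difference between them was not tested. Against microglia, 12 passed as lower with TMM factors, where 21.6% of features did, while in WT libraries alone 1 passed. With tRNA totals 8 passed as higher, a share near the 55% of all features. With TMM factors, those that did not pass were Leu-CAA-1, Leu-CAA-3, Leu-CAA-4 and Leu-CAG-3. The largest difference with TMM factors was in Leu-CAG-4 (−2.24 ± 0.30, adjusted p = 8.92e-07).

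The amino acid groups whose levels followed leucine most closely over the 18 libraries were glycine (Pearson r = 0.910), valine (r = 0.791) and tryptophan (r = 0.758), computed on log2 CPM and given as a description, since all values of a library share its total. Glycine tRNA was at 9614, 22449 and 26801 CPM in the KIN microglia libraries, so that KIN replicate 1 was the lowest there too.

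Other genes of the pathway were followed as transcripts of leucine charging, tRNA splicing, maturation, transcription and export. Of 166 listed entries, only 6 or 7 had enough counts to be tested, and none passed between genotypes in any fraction. Between microglia and astrocytes 3 were higher and 2 lower, where 16.5% and 22.2% of all features were. The mitochondrial leucine tRNAs mt-Tl1 and mt-Tl2, which read the leucine codons in mitochondria, were lower in microglia, with log2 fold changes of −2.14 and −1.54. In neurons against astrocytes they were at −2.75 and −3.38. The mean of mt-Tl1 was 4413 ± 223 CPM in WT and 3511 ± 228 in KIN astrocytes (SD, n = 3), and the WT neuron libraries were at 147.8, 3408 and 399.3 CPM, with replicate 2 far above the others. With TMM factors, the only scaling used for these pathway genes, 5 transcripts passed as higher in neurons than in astrocytes, where 18.8% of features did. They were 3 of Lars2, the mitochondrial leucyl-tRNA synthetase (2.42 to 3.26), Rpph1, the RNA of RNase P (1.87), and 1 of Ssb, which encodes the La protein (2.36). The 3 Lars2 transcripts overlap, so their reads are not independent. Lars2-201, Lars2-205 and Lars2-209 held 49277, 9011 and 49161 counts in all, against 27 for the Ssb transcript. Whether these reads come from Lars2 mRNA was not tested, so the values do not give the level of the synthetase.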

How the data were processed

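Small RNA of 18 libraries (6 groups of 3) was sequenced by the study. The authors trimmed reads with Cutadapt 4.6 (minimum length 20), aligned them with Bowtie2 2.4.4 to miRNA, tRNA, piRNA, ncRNA and cDNA in turn (mm39) and counted them with HTSeq 2.0.2 without strand. The deposited values used here are raw counts per feature. Whether unique molecular identifiers were collapsed in these libraries is not given in the sources used here. A read matching several tRNA copies was placed at 1 of them, which evens out identical copies. Of the same table, 36 per-library columns on other scales, 12 group means and 15 columns of the authors' comparisons were not used.

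Leucine rows were summed per isodecoder, anticodon and amino acid within the whole table. Genotypes were compared in a fit of 6 libraries per fraction, and fractions and KIN effects in 1 fit of 18, with edgeR 4.0.16 (R 4.3.3, limma 3.58.1), TMM factors, rows with at least 5 counts in at least 2 libraries, and Benjamini-Hochberg adjustment over all rows. Features past the test had an adjusted p of at most 0.05, and those called also differed by 1 or more on the log2 scale. DESeq2 1.42.0, other scalings, no filter, a replicate block and leaving out each library were alternatives, and the scripts were tested on simulated data. Printed levels are CPM, counts scaled to the library total, whereas fold changes use TMM factors. Shares were compared by exact permutation tests.

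Named isodecoders were the highest and lowest of each anticodon, those with the smallest p (3) or largest log2 fold change (2) per genotype comparison, and all called ones. The members and lists were chosen with earlier results of these data known. Leaving out both microglia libraries that stood apart was chosen after seeing the data, from their leucine anticodon shares. Loci were found by searching the GRCm39 primary assembly for tRNA promoter elements, stem pairing and the anticodon. Their gene context was taken from the GENCODE annotation. Total counts of 1211118 to 4316748 per library limit the precision of the rarest members, and counting error is small for the others.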

Additional observations from a re-analysis of the deposited data

How the results depend on the processing

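Of the summary values, the sum in microglia over astrocytes and the count of 0 isodecoders between genotypes in neurons kept direction and side of the threshold under all scalings. With factors from mature microRNAs, the log2 fold change of the sum was −0.56 for KIN over WT in astrocytes, 0.48 in microglia, 2.41 for neurons over astrocytes, 1.48 for neurons over microglia and 0.31 for the KIN effect of neurons minus astrocytes. Isodecoders past the test were 2 as lower in astrocytes and 16 as higher for neurons over astrocytes, and 3 single members passed between genotypes. The share of all features that passed with these factors is not given here, so these counts only describe the setting. With tRNA totals the sum was −0.13 in astrocytes, 0.032 in microglia, 1.27 for neurons over astrocytes and 0.59 over microglia, with 1 isodecoder in astrocytes, 12 for neurons over astrocytes and 1 single member. With library totals it was 0.073 for neurons over astrocytes and 0.73 in microglia. DESeq2 passed 2 isodecoders in astrocytes, which were its 2 single members, and 1 fit of all 18 libraries passed 1 single member. With no filter, 9 isodecoders passed in microglia and 13 single members. Counts in this section without a share of all features describe the setting and are no result about leucine tRNA.

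In WT libraries alone, the sum was 0.58 for microglia over astrocytes and −0.68 for neurons over microglia, and 2 isodecoders passed for microglia over astrocytes, 0 for neurons over astrocytes and 1 for neurons over microglia. In KIN libraries alone, the sum was −0.50 for neurons over astrocytes (adjusted p = 0.0457) and 11 isodecoders passed for microglia over astrocytes. The share of all features that passed in the fits of 1 genotype is not given here. Their counts therefore do not show that leucine tRNA differed more in 1 genotype. With the replicate number as a block, the sum was 0.95 in microglia (adjusted p = 0.12) and −1.32 for the KIN effect of neurons minus microglia (adjusted p = 0.0154), and it changed no other call of a sum. Numbers were not taken as pairs. Between genotypes, correlations of same-numbered libraries were 0.058 to 0.115 in astrocytes, −0.256 to 0.199 in microglia and −0.293 to −0.030 in neurons. Of 18 libraries, 1 correlated best with its own number. Between fractions, same numbers gave −0.306 to 0.397 for microglia and astrocytes, −0.088 to 0.372 for neurons and astrocytes, and −0.135 to 0.258 for neurons and microglia. Other numbers gave −0.422 to 0.277, −0.325 to 0.294 and −0.245 to 0.224. These ranges overlap and do not settle whether a number names 1 brain. Low Xist counts fell on KIN replicate 1 in every fraction. Without both microglia libraries that stood apart, a setting chosen on the leucine shares themselves, the counts are no test. In microglia 16 isodecoders were past the threshold, where 31.1% of all features were. The KIN effect of neurons minus microglia was −1.86, with 4 isodecoders past the threshold, where 1.94% of all features were.

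With 1 library left out, the sum ran from 0.041 to 0.333 in astrocytes with 0 to 6 isodecoders, from 0.795 to 1.18 in microglia with 0 to 12, and from −1.65 to −1.06 for the KIN effect of neurons minus microglia with 0 to 3. Single members that changed sign in astrocytes ranged from −0.0077 to 0.346 (Leu-CAA-1), −0.0462 to 0.249 (Leu-CAG-1), −0.0291 to 0.276 (Leu-CAG-2), −0.167 to 0.199 (Leu-CAG-3), −0.152 to 0.027 (Leu-CAG-4), −0.158 to 0.263 (Leu-TAA-1), −0.0971 to 0.174 (Leu-TAG-2) and −0.0601 to 0.24 (Leu-CAG). In neurons they ranged from −0.214 to 0.47 (Leu-AAG-2), −0.214 to 0.343 (Leu-AAG-3), −0.788 to 0.19 (Leu-CAG-3), −1.66 to 0.683 (Leu-TAA-1), −0.964 to 0.653 (Leu-TAA-2), −0.249 to 0.213 (Leu-TAG-3), −0.403 to 0.0308 (Leu-AAG), −1.09 to 0.689 (Leu-TAA) and −0.526 to 0.21 (Leu-TAG).

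Single members also changed sign with the scaling. For KIN over WT in astrocytes with factors from mature microRNAs, the values were −0.62 (Leu-AAG-1), −0.34 (Leu-AAG-2), −0.23 (Leu-AAG-3), −0.57 (Leu-CAA-1), −0.40 (Leu-CAA-2), −0.48 (Leu-CAA-4), −0.65 (Leu-CAG-1), −0.63 (Leu-CAG-2), −0.69 (Leu-CAG-3), −0.68 (Leu-TAA-1), −0.43 (Leu-TAA-2), −0.68 (Leu-TAG-2), −0.47 (Leu-TAG-3), −0.57 (Leu-AAG), −0.45 (Leu-CAA), −0.67 (Leu-CAG), −0.45 (Leu-TAA) and −0.51 (Leu-TAG), and in neurons −0.0018 (Leu-AAG-2) and −0.015 (Leu-AAG-3). With tRNA totals they were −0.15 (Leu-AAG-1), −0.17 (Leu-CAA-1), −0.066 (Leu-CAA-4), −0.24 (Leu-CAG-1), −0.21 (Leu-CAG-2), −0.27 (Leu-CAG-3), −0.29 (Leu-TAA-1), −0.028 (Leu-TAA-2), −0.25 (Leu-TAG-2), −0.016 (Leu-TAG-3), −0.10 (Leu-AAG), −0.045 (Leu-CAA), −0.25 (Leu-CAG), −0.054 (Leu-TAA) and −0.069 (Leu-TAG) in astrocytes. In microglia they were −0.0074 (Leu-AAG-1), −0.21 (Leu-CAA-1), −0.34 (Leu-CAA-2), −0.25 (Leu-CAA-4), −0.23 (Leu-CAG-3), −0.14 (Leu-TAG-2), −0.078 (Leu-TAG-3), −0.30 (Leu-CAA) and −0.089 (Leu-TAG). With library totals, astrocyte values were −0.0053 (Leu-CAA-1), −0.080 (Leu-CAG-1), −0.049 (Leu-CAG-2), −0.11 (Leu-CAG-3), −0.13 (Leu-TAA-1), −0.095 (Leu-TAG-2) and −0.088 (Leu-CAG). Leu-CAG-4 in astrocytes was at 0.023 with DESeq2 and 0.16 with no filter, and Leu-TAG-3 in neurons at 0.0061 with DESeq2, 0.13 with no filter and 0.093 in 1 fit of all libraries. The cause was not tested. The median log2 fold change of all features moved from −0.20 to −0.94 in astrocytes with factors from mature microRNAs and from −0.09 to −1.06 in microglia with tRNA totals. The neuron libraries, with 1211118 to 2427384 counts, limit the rare Leu-TAA-1 and Leu-CAG-3.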
